A study of Homo sapiens with 7 samples.

Results

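The constitutive proteasome subunits were followed in Huh7, a human hepatoma cell line, as 34 genes chosen by symbol: the α ring (PSMA1 to PSMA7), the β ring (PSMB1 to PSMB7), the base ATPases (PSMC1 to PSMC6) and PSMD1 to PSMD14, which hold the other subunits of the 19S particle and 3 chaperones that help to assemble it. Each gene was read from its brightest probe, and the arrays measured 18336 genes in all. Cells were given 20 ng/ml of IFN-λ4, 20 ng/ml of IFN-λ1 or 10 IU/ml of IFN-α, each for 16 h or 6 h, and were compared with untreated cells at 0 h. There was 1 Cy5 array for each of these 7 conditions. No condition was repeated. Doses were given by mass for IFN-λ and by activity for IFN-α, and untreated cells were taken at the start only. Levels below are quantile-normalized intensities divided by 1000 and are called units.

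The proteasome degrades proteins tagged with ubiquitin. Its 20S core is a barrel of α and β rings with the proteolytic sites inside, and the 19S particle binds ubiquitin chains, removes them and unfolds the substrate with its ring of ATPases. Interferons induce alternative catalytic β subunits, PSMB8, PSMB9 and PSMB10, which take the places of PSMB5, PSMB6 and PSMB7 in newly built cores and favour peptides that fit MHC class I.

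The promoters shown are those of the inducible catalytic genes, of PSMB5 as a constitutive one, and of PSMB4, a β subunit without a proteolytic site. The windows run from 250 bases before to 50 after the annotated start, from RefSeq (GRCh38.p14), 5′ to 3′ on the strand of the gene. Capitals mark matches to the interferon-stimulated response element, searched as GAAANNGAAA on both strands, which 3.57% of all 35116 windows held. The inducible genes PSMB8 at chr6:32843998-32844297 (minus strand) and PSMB10 at chr16:67936801-67937100 (minus strand) held a match. The inducible PSMB9 at chr6:32853942-32854241 (plus strand) held none, nor did the constitutive PSMB5 at chr14:23035171-23035470 (minus strand), and PSMB4 at chr1:151399323-151399622 (plus strand) was 1 of 2 constitutive genes with a match.
PSMB8: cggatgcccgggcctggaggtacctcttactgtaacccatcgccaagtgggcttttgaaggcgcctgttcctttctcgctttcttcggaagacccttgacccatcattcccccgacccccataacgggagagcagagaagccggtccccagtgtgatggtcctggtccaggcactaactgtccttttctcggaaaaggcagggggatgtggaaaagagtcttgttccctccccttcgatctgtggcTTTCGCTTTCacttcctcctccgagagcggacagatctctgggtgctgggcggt
PSMB10: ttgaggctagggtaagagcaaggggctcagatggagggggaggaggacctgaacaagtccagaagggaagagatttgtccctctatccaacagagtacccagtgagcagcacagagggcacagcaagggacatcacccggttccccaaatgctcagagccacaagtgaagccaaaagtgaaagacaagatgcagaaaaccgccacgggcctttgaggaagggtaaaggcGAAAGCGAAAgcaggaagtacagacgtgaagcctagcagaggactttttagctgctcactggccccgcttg
PSMB9: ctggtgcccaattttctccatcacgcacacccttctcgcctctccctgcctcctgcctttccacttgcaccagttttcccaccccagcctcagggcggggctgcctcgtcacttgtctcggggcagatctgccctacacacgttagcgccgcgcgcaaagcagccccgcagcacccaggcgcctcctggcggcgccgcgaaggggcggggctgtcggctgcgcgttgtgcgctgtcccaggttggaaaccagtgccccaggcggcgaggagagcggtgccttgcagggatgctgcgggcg
PSMB5: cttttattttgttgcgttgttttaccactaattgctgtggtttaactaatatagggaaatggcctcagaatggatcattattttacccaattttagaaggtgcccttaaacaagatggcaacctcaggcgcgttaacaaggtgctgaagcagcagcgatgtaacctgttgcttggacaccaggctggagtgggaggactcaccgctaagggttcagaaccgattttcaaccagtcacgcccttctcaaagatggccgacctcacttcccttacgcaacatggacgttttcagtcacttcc
PSMB4: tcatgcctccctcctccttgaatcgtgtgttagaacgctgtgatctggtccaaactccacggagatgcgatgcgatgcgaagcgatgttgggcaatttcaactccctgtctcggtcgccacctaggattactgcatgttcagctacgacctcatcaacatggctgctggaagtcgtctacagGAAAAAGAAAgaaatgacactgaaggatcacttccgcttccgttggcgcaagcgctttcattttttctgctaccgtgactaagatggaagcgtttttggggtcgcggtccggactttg

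A window was given for 29 of the 34 genes, 35 windows in all, and 2 genes held the element, PSMA4 and PSMB4, against 4 of the 5 inducible genes (PSMB8, PSMB10, PSME1 and PSME2). PSMA7, PSMB1, PSMB6, PSMB7 and PSMD4 had no window. The antioxidant response element, searched as TGACNNNGC, was in windows of 9 constitutive genes and in 13.3% of all windows, and the gamma activated site, searched as TTCNNNGAA, in windows of 5 and in 7.66% of all windows. A match is a string of letters in the window and not a shown binding site. PSMB9, with none, was up to 22.4-fold untreated, and PSME2, with a match, stayed between 0.36 below and 0.23 above untreated on the log2 scale.

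All 6 genes of a list of known interferon targets (IFI6, ISG15, OAS1, MX1, IFITM1 and IRF9) were at least 2-fold off untreated on some array, and 5 passed an adjusted p of 0.05 as higher in the limma comparison of treated with untreated arrays. The untreated side of that comparison was 1 array and the treated side 6 different conditions. Its intervals and p-values take the error of the untreated array from the spread among the treated conditions, here and below. That error was not measured on untreated cells. Hepatocyte markers had a summed level of 1929 to 2152 units, and none of the 12 reached 2-fold. Summed levels were 5.84 to 11.9 units for leukocyte, 3.55 to 4.99 for fibroblast and 2.87 to 4.51 for endothelial markers. The 3 leukocyte markers above the dim level each passed 2-fold on some array, and their part in any result was not tested. In bulk RNA, fewer cells with a transcript and less of it per cell cannot be told apart.

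Most constitutive genes were bright and kept close to their untreated level. Of the 34, 33 passed the filter on dim genes, and PSMD9, an assembly chaperone, did not. The median gene was brighter than 95.1% of the 12835 genes tested, and 27 of the 33 were above the 90th percentile. The range over the 7 arrays had a median of 0.53 log2 units, against 0.74 over all genes tested and 0.49 over the 634 at least as bright as the median member. Under 2-fold on every treated array were 29 of the 33 genes (87.9%), against 85.4% of all genes tested and 96.4% of the bright ones. The members' share under 2-fold lay between those of all genes and of bright genes.

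Against untreated, 1 of 33 genes reached 2-fold after IFN-λ4 at 16 h, where 1.18% of all genes tested did, and 1 after IFN-λ4 at 6 h, where 3.29% did. None did after IFN-λ1 at 16 h (1.19% of all genes tested) and 1 did after IFN-λ1 at 6 h (1.73%). After IFN-α, 2 did at 16 h (9.25%) and 3 at 6 h (6.75%). These are differences of single arrays and carry no p-value. The median gene differed from untreated by 0.07 and -0.12 log2 units after IFN-λ4 at 16 h and 6 h, 0.02 and -0.09 after IFN-λ1, and -0.27 and -0.05 after IFN-α. Median centring in place of quantile normalization turned the sign for IFN-λ4 at 6 h, to 0.25, and for IFN-α at 6 h, to 0.37, where it also put the median of all genes tested at 0.22 on both arrays. On the IFN-α array of 16 h, 27 of 33 genes (81.8%) were below untreated, against 56.7% of all genes tested and 52.1% of the bright ones, and 29 were with median centring, against 64.2% of all genes tested.

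**Figure D1:**
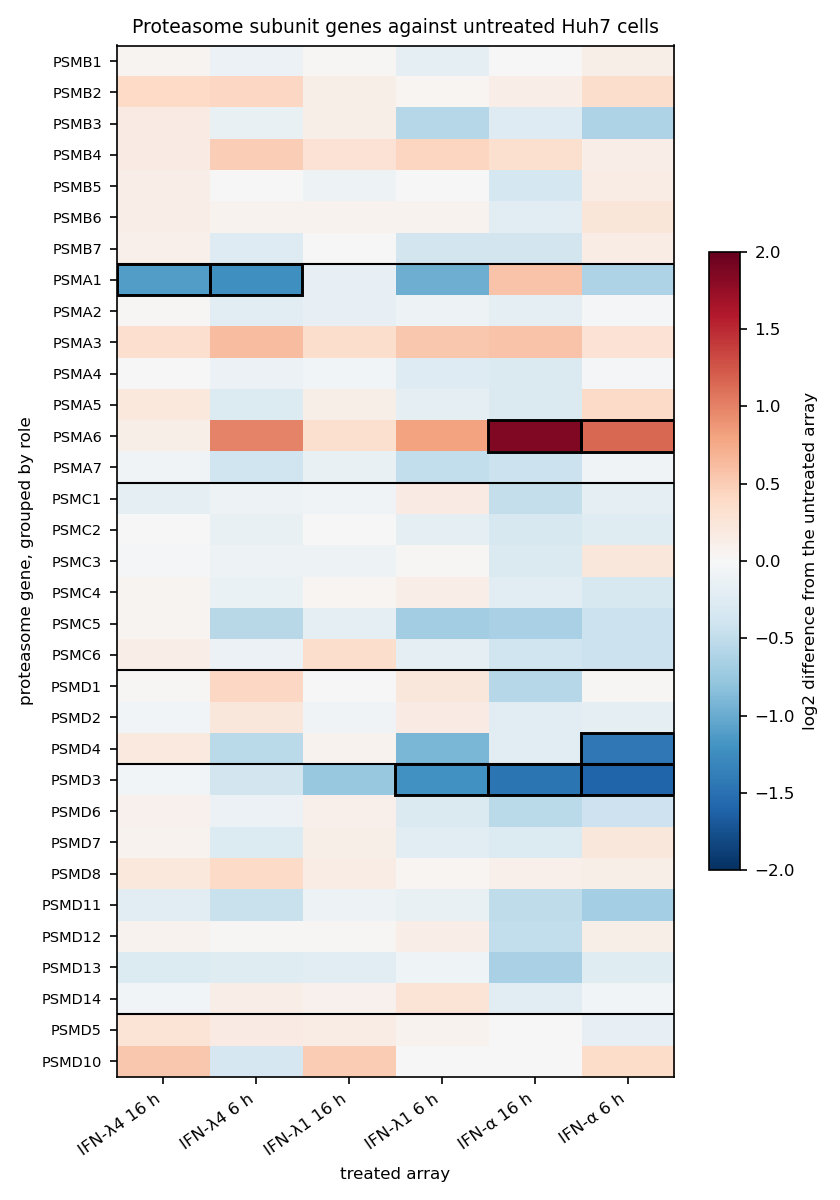
Log2 difference from the untreated array (colour) of the 33 genes above the dim level (rows, grouped by role, β ring at the top and assembly chaperones at the bottom) on the 6 treated arrays (columns); black frames mark differences of at least 2-fold. Frames stand in 4 rows, PSMA1, PSMA6, PSMD3 and PSMD4, and the column of IFN-α at 16 h has 27 genes below untreated.

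By their brightest probes, the catalytic β subunits stayed near their untreated level. PSMB5, the chymotrypsin-like site, had 209 and 193 units after IFN-λ4 at 16 h and 6 h, 178 and 192 after IFN-λ1 and 150 and 211 after IFN-α, against 191 in untreated cells. PSMB7, the trypsin-like site, had 174 and 135 units after IFN-λ4 at 16 h and 6 h, 163 and 125 after IFN-λ1 and 126 and 180 after IFN-α, against 162 in untreated cells. The treated arrays lay on both sides of untreated for both genes. PSMB6, the caspase-like site, was between 0.24 above and 0.23 below untreated on the log2 scale. Its value was identical on 3 IFN-λ arrays, since quantile normalization gives genes of the same rank the same value. A second probe of PSMB6 was 0.49 above untreated after IFN-λ4 at 6 h. After IFN-α at 16 h and 6 h that probe differed from untreated by 0.05 and -0.14, and the brightest probe by -0.23 and 0.24. By limma the treated arrays differed from untreated by -0.03 for PSMB5 (95% interval -0.44 to 0.39), 0.06 for PSMB6 (-0.32 to 0.44) and -0.12 for PSMB7 (-0.62 to 0.37).

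Their inducible counterparts were higher on every treated array. They were low in untreated cells, with 0.129 units for PSMB8, 0.398 for PSMB9 and 0.323 for PSMB10. ACTA2, which the filter dropped as dim, had 0.290 units there, so the folds of PSMB8 start from a level near the dim genes. PSMB8 was 3.37-fold and 2.82-fold untreated after IFN-λ4 at 16 h and 6 h, 4.04-fold and 2.42-fold after IFN-λ1, and 17.8-fold and 7.68-fold after IFN-α. PSMB9 was 22.4-fold and 20.1-fold untreated after IFN-α at 16 h and 6 h, and 2.04-fold to 2.96-fold after the IFN-λ treatments. The log2 difference of PSMB8 exceeded that of PSMB5 by 1.27 to 4.51, that of PSMB9 exceeded PSMB6 by 0.96 to 4.72, and that of PSMB10 exceeded PSMB7 by 0.78 to 1.67. None of the 5 inducible genes (these 3 and the PA28 activator genes PSME1 and PSME2) was called between treated and untreated arrays. PSMB9 was called lower with IFN-λ than with IFN-α (log2 difference -2.99 ± 0.20 SE, limma).

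**Figure D2:**
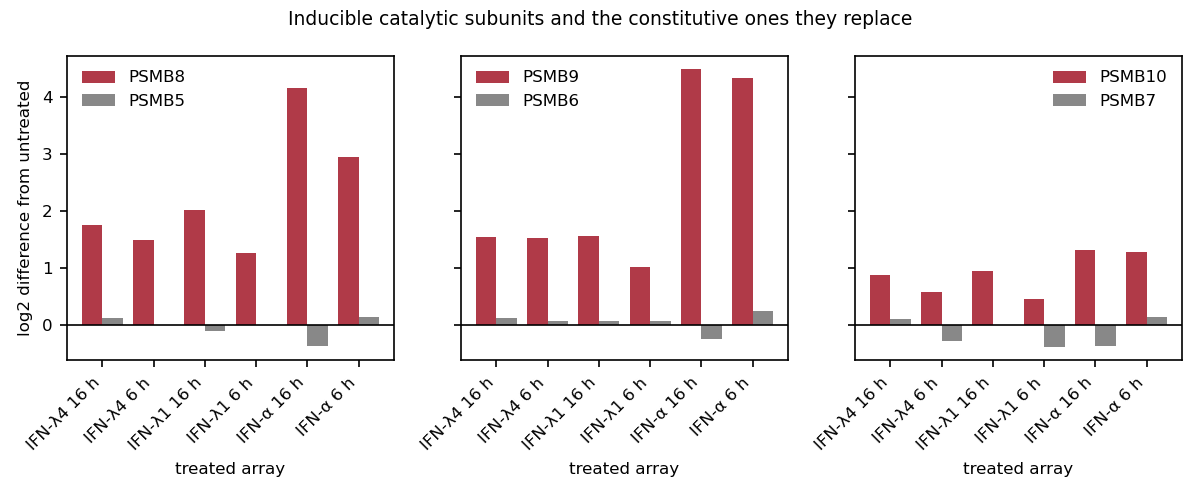
Log2 difference from untreated (vertical axis) on each of the 6 treated arrays for the inducible subunits PSMB8, PSMB9 and PSMB10 (red bars) beside PSMB5, PSMB6 and PSMB7 (grey bars), 1 array per bar. Red bars reach 4.49 and grey bars lie between -0.37 and 0.24.

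Of the β subunits without a proteolytic site, PSMB1 stayed within 0.19 log2 units of untreated by its brightest probe. A second probe of PSMB1 was above untreated on all 6 treated arrays, by 0.07 to 0.28. PSMB4 was above untreated on all 6 treated arrays, by 0.14 to 0.49. PSMB2 was above it on all 6, by 0.04 to 0.42. All 6 treated arrays lay on the same side of untreated for 9 of 33 members (27.3%), PSMA3 and PSMD3 included. The same held for 2837 of the 12835 genes tested. PSMB3 was between 0.62 below and 0.16 above, a range of 0.78 over the 7 arrays, above the median range of all genes tested.

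Of the α ring, which gates entry to the core, PSMA2, PSMA4, PSMA5 and PSMA7 stayed within 0.49 log2 units of untreated by their brightest probes. A far dimmer second probe of PSMA5, with 1.15 units after IFN-α at 6 h, was 0.93 above untreated there. Each further probe of PSMA2 and PSMA7 had the direction of the brightest on only 1 of the 6 treated arrays. PSMA3 had 78.3 and 95 units after IFN-λ4 at 16 h and 6 h, 78.8 and 90.5 after IFN-λ1 and 92.0 and 75.5 after IFN-α, against 62.1 in untreated cells. All 6 treated arrays were above the untreated one, by 0.45 ± 0.18 (SE) log2 units, with a limma adjusted p of 0.999.

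PSMA6 was the one member at least 2-fold above untreated, and was read by 1 probe. It was among the dimmer members, brighter than 45.9% of the genes tested. It had 1.53 and 2.80 units after IFN-λ4 at 16 h and 6 h, 1.76 and 2.46 after IFN-λ1 and 5.07 and 3.13 after IFN-α, against 1.41 in untreated cells. Both IFN-α arrays were above all 4 IFN-λ arrays. The IFN-λ4 array of 6 h lay just inside the threshold, 0.99 log2 units above untreated.

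PSMA1 had 35.6 and 32.9 units after IFN-λ4 at 16 h and 6 h, 69.0 and 39.2 after IFN-λ1 and 115 and 50.3 after IFN-α, against 77.1 in untreated cells. The IFN-λ4 arrays were over 2-fold below untreated and the IFN-α array of 16 h above it. A second probe of the gene read otherwise, with 68.3 units after IFN-λ4 at 16 h against 61.4 in untreated cells, and it reached 2-fold on no array. Of 12 further probes of 10 genes, 2 differed from the brightest by at least 2-fold on some array, this one and the second probe of PSMC3.

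**Figure D3:**
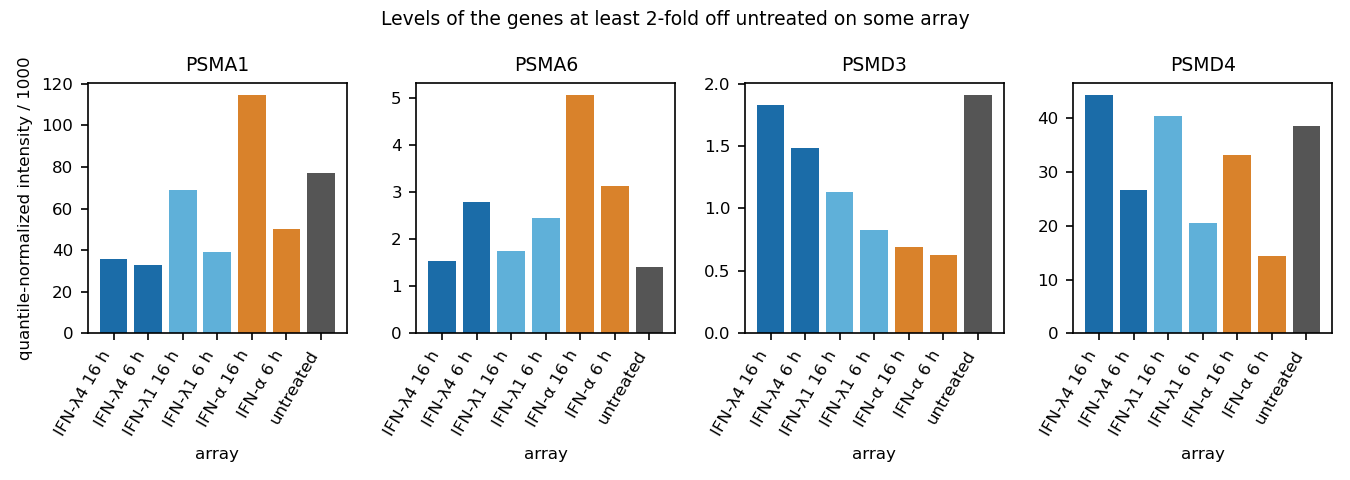
Level in units of 1000 (vertical axes, each from 0) of PSMA1, PSMA6, PSMD3 and PSMD4 on the 7 arrays, 1 bar per array, IFN-λ4 dark blue, IFN-λ1 light blue, IFN-α orange and untreated grey. PSMD3 had 0.695 and 0.626 units on the IFN-α arrays, below every other bar of its panel.

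In the 19S particle, the base ATPases PSMC1 to PSMC6 were all below untreated on the IFN-α array of 16 h. They were below it by 0.23 to 0.64 log2 units. On the IFN-α array of 6 h 5 of 6, all but PSMC3, were below untreated. Of all genes tested, 56.7% and 49.2% were below untreated on these arrays. At 6 h 18 of all 33 members were below untreated, and 8 with median centring, against 32.8% of all genes tested. PSMC2 had 3 probes, and the dimmest went the same way as the brightest on all 6 treated arrays. It differed from untreated by -0.54 and -0.17 log2 units after IFN-α at 16 h and 6 h. Second probes differed for both genes that had one. That of PSMC2 was 0.29 above untreated after IFN-α at 16 h and 1.06 below it at 6 h, with 41.8 and 16.4 units against 34.2 in untreated cells. That of PSMC3 had log2 differences of -1.12 and -2.18 from untreated at 16 h and 6 h, with 0.689 and 0.331 units against 1.50 in untreated cells, so it turned the direction at 6 h. PSMC5 had 75.4 and 49.9 units after IFN-λ4 at 16 h and 6 h, 64.1 and 45.1 after IFN-λ1 and 46.7 and 54.3 after IFN-α, against 72.9 in untreated cells. It came closest to untreated on the IFN-λ arrays of 16 h.

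Of the base scaffolds, PSMD1 was 0.58 log2 units below untreated after IFN-α at 16 h and 0.41 above it after IFN-λ4 at 6 h, and PSMD2 stayed within 0.22. PSMD4, a receptor for ubiquitin chains, had 44.4 and 26.6 units after IFN-λ4 at 16 h and 6 h, 40.5 and 20.5 after IFN-λ1 and 33.2 and 14.3 after IFN-α, against 38.6 in untreated cells. Every array of 16 h was above every array of 6 h.

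In the lid, which carries the deubiquitinase PSMD14, PSMD3 had 1.83 and 1.48 units after IFN-λ4 at 16 h and 6 h, 1.13 and 0.824 after IFN-λ1 and 0.695 and 0.626 after IFN-α, against 1.91 in untreated cells. All 6 treated arrays were below untreated, and PSMD3 was among the dimmer members. PSMD14 itself was between 0.22 below and 0.28 above. PSMD6, PSMD7, PSMD8, PSMD11, PSMD12 and PSMD13 stayed within 0.68 log2 units of untreated. Of the assembly chaperones above the dim level, PSMD5 stayed within 0.28, and PSMD10 was 0.54 above untreated after IFN-λ4 at 16 h and 0.33 below it at 6 h. It was 0.50 above untreated after IFN-λ1 at 16 h and 0.36 above it after IFN-α at 6 h, and at the untreated level on the other arrays of these interferons.

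In the 4 comparisons over all arrays of their groups, limma called no member at an adjusted p of 0.05, which adjusts over all 12835 genes by Benjamini-Hochberg. Treated against untreated called 0.117% of all genes tested and had 1 of 33 members (3.03%) at an unadjusted p under 0.05, against 257 of the 12835 genes. IFN-λ4 against IFN-λ1 called 0% of all genes and also had 1 member at that unadjusted p, against 2.39% of all genes. It was PSMD3 (0.77 ± 0.21 SE, limma adjusted p = 1.0).

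Between 16 h and 6 h, with a block for interferon, 0% of all genes were called and 4 members had an unadjusted p under 0.05 (12.1%, below the 15.1% of all genes tested). PSMD4 had the lowest adjusted p, 0.183 by limma, and was 0.98 ± 0.15 (SE) log2 units higher at 16 h. Arrays of the 2 times did not overlap for 1 of 33 members (3.03%), PSMD4, against 19.8% of all genes tested. Without the IFN-α arrays limma called 10 members, PSMA5, PSMA6, PSMA7, PSMB3, PSMB7, PSMC5, PSMC6, PSMD4, PSMD7 and PSMD10, and 20.9% of all genes tested. Without the IFN-α array of 16 h or of 6 h it called 11 and 10, beside 21% and 20.5% of all genes. These fits had 1 residual degree of freedom, which measures how far the IFN-λ4 and IFN-λ1 arrays differed over time and no repeat of a condition.

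Between IFN-λ and IFN-α, with a block for time, 0.156% of all genes were called and 8 members had an unadjusted p under 0.05 (24.2%, against 17.4% of all genes tested). PSMD3 had the lowest adjusted p, 0.0944 by limma, and was 0.94 ± 0.18 (SE) log2 units higher with IFN-λ. The 4 IFN-λ arrays did not overlap the 2 IFN-α arrays for 10 members (30.3%), against 23.1% of all genes tested. Of these, 9 were higher with IFN-λ (PSMC1, PSMC2, PSMC4, PSMC6, PSMD2, PSMD3, PSMD5, PSMD6 and PSMD11), and PSMA6 was lower. Without the IFN-α array of 16 h limma called 7 members and 15.3% of all genes, and without that of 6 h 13 members and 27% of all genes, again with 1 residual degree of freedom.

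After these calls were seen, a fit was added that gave the IFN-λ arrays a change over time of their own. It called 10 members between 16 h and 6 h on the IFN-λ arrays (20.5% of all genes), 13 between IFN-λ and IFN-α at 16 h (27.1%), 6 at 6 h (15%) and 7 for the difference between the changes over time (19.5%). It had 1 residual degree of freedom too, its counts moved with the settings, from 3 to 12 for the first, and no gene is named from it.

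Split by particle, a grouping chosen after the values were seen and therefore given with no test, the 19 genes of the 19S particle and its chaperones had a median of 0.25 log2 units for IFN-λ minus IFN-α, and 16 were higher with IFN-λ. The 14 genes of the 20S core had a median of -0.01, with 6 higher, and the median of all genes tested was 0.03. With the second probe of genes that had several, 11 of the 14 and 17 of the 19 were higher with IFN-λ. With the mean of probes 9 of the 14 and 17 of the 19 were. The share of all genes tested that was higher with IFN-λ was not computed. Both IFN-α arrays were below untreated for 13 of the 19 and 4 of the 14, against 36.2% of all genes tested. With median centring these counts were 6 of the 19 and 1 of the 14, against 27.0% of all genes. The 19S genes that did not overlap and were higher with IFN-λ numbered 9, against 12.3% of all genes tested, and 3 with median centring, against 12.6%.

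**Figure D4:**
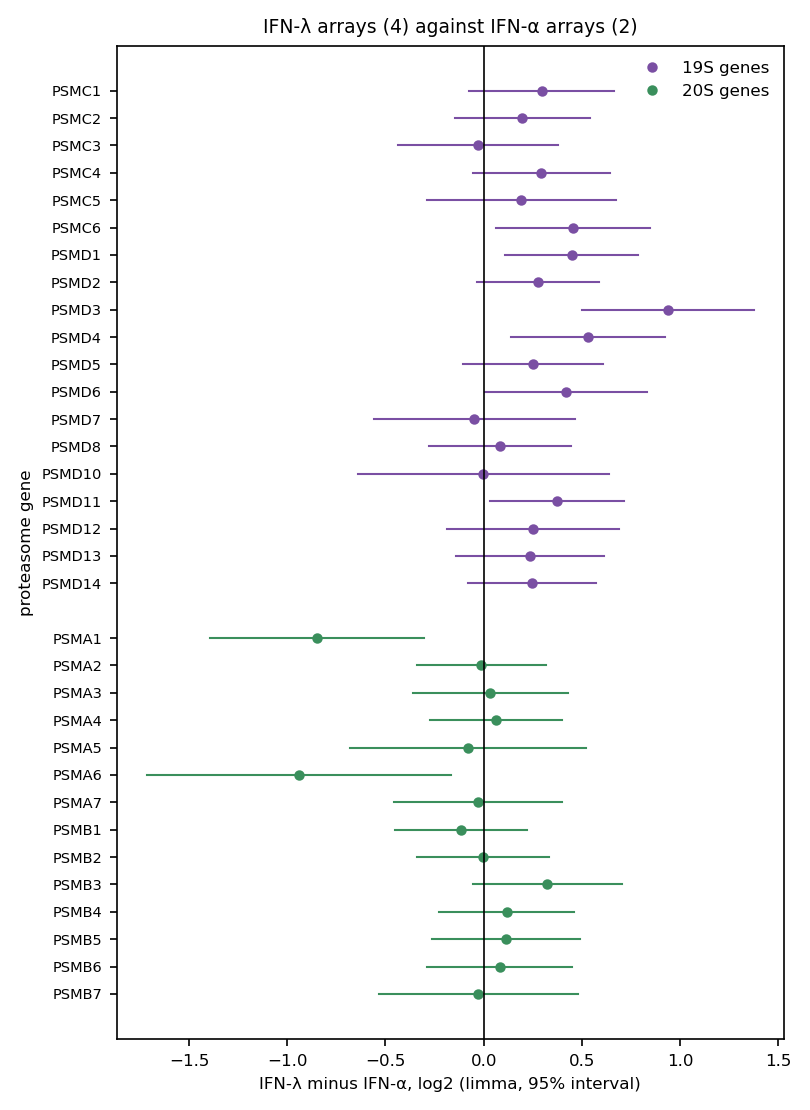
IFN-λ minus IFN-α (4 arrays against 2) in log2 units (horizontal axis, points, with 95% limma intervals as lines) for the 19S genes (purple, upper) and the 20S genes (green, lower). PSMD3 lies farthest right, at 0.94, and PSMA6 farthest left, at -0.94.

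The rest of the pathway was read from 8 lists of 37 genes (tissue-specific and other 19S subunits, activators and inhibitors, assembly factors, bound enzymes, transcription factors of proteasome genes with their processing, shuttles with p97, and ubiquitin supply). Of these, 33 were on the arrays and 29 were tested. None of the 29 reached 2-fold on any array, and none was called by limma in the 4 comparisons. PSME3 and PSME4, other activators of the core, stayed within 0.61 log2 units of untreated.

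Among 12802 other genes, those whose levels over the 7 arrays were most like the median profile of the members were PECAM1 (Pearson r = 0.987), DEPP1 (0.985), DNAJC3 (0.981), PCDHB5 (0.980) and RAB3D (0.977), a description over 7 points chosen from many genes. PECAM1 is also on the list of endothelial markers, and was 0.66 log2 units below untreated after IFN-α at 16 h; the part of that in the members' values was not tested.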

How the data were processed

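Per the labels' protocols, total RNA was amplified, labelled with Cy5 and hybridised, 1 array per condition. The authors deposited 1 intensity per probe, with scaling, scanner and build not given in the sources used here. Doses are as labelled; the unit of IFN-α is written as U/ml in one field and IU/ml in another.

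Intensities were set to at least 1, turned to log2 and quantile normalized (numpy 2.4.6, pandas 2.3.3, Python 3.11.15). Symbols came from the platform's probe table, 1948 of them updated. The probe with the highest mean deposited value stood for each gene, and 12835 genes above the 30th percentile were kept. Every member was described. limma 3.58.1 (R 4.3.3) used a variance trend and Benjamini-Hochberg adjustment over all genes kept. Residual degrees of freedom were 5 for treated against untreated and 2 for the blocked comparisons. In all, 40 limma fits were run, over the planned and added settings. Arrays carry no replicates, so p-values rest on the spread between conditions.

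The members and lists were chosen with earlier results of these data known. The steps were tested on simulated data. There the fit added afterwards, with 1 residual degree of freedom, recovered the size of changes but called none of them. The fits that left out IFN-α arrays, also with 1 residual degree of freedom, were not simulated.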

Additional observations from a re-analysis of the deposited data

Results flagged for a closer look

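PSMD5, an assembly chaperone of the 19S base, was above untreated on all 4 IFN-λ arrays and below it on both IFN-α arrays, which made it stand out. The separate IFN-α differences were -0.16 log2 units for 6 h and only -0.01 for 16 h, the latter practically equal to untreated. The pattern did not hold with median centring. Deposited PSMD5 intensities were 15537 after IFN-α at 6 h and 16698 in untreated cells, and the medians of these arrays were 494 and 609. The array median was lower by a larger factor, so median centring puts PSMD5 above untreated after IFN-α at 6 h. The share of all genes tested with the pattern is not given. The mean difference of PSMD5 from untreated was 0.16 log2 units with IFN-λ and -0.09 with IFN-α, a gap of 0.25. By limma that gap had an adjusted p of 0.451.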

How the results depend on the processing

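Of 300 recomputed values 263 kept their verdict, with a tolerance of 0.17 log2 units for medians. Of the values of single genes 1 reversed. Medians that changed sign were not counted as reversed, and within the tolerance they were counted as kept. Some settings could not change a value, such as other probes for a gene with 1 probe, so the count is no measure of robustness. A kept count can also hold other genes: for IFN-λ4 at 6 h median centring still gave 1 member, with PSMA1 at -0.84. With 1 array per condition, array error was not measured, and the number of arrays limits precision. Members at least 2-fold off untreated with IFN-λ4 at 16 h numbered 0 with median centring, the mean of probes, the second probe and a 3-fold threshold, since only PSMA1 passed. The second probe put PSMA1 0.15 above untreated there, gave 0 members for IFN-λ4 at 6 h and 5 for IFN-α at 6 h. A 1.5-fold threshold gave 3 for IFN-λ4 at 6 h, 1 and 5 for IFN-λ1 at 16 h and 6 h, and 4 and 6 for IFN-α at 16 h and 6 h. A 3-fold threshold gave 0 for IFN-λ4 and IFN-λ1 at 6 h and 1 for each IFN-α array. Median centring moved the median member to 0.25 for IFN-λ4 at 6 h and 0.37 for IFN-α at 6 h, and left 3 of the 19S genes without overlap. In 44 of 49 limma alternatives, not counting the fit added afterwards, no member was called. The others left out IFN-α arrays: 16 h against 6 h called 10 without both, 11 without that of 16 h and 10 without that of 6 h, and IFN-λ against IFN-α called 7 and 13 without that of 16 h and of 6 h. The fit added afterwards, with its own change over time for IFN-λ, called 10 for the times and 13 and 6 for IFN-λ against IFN-α at 16 h and 6 h. The cause was not tested.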
